A study of Mus musculus with 12 samples.

Results

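Carbonic anhydrases interconvert CO2 and bicarbonate with the release or uptake of a proton, and the isoforms of the family do this in the cytosol, in the mitochondrial matrix, on the cell surface or in secretions. A few relatives have the same fold but lack the zinc ligands needed for catalysis and have no enzyme activity. Transcripts of 10 family genes (*Car2*, *Car3*, *Car4*, *Car5b*, *Car6*, *Car8*, *Car11*, *Car12*, *Car13* and *Car14*) out of 24453 genes in the count table were followed across 4 lines of mouse embryonic fibroblasts (MEFs), and the other 6 family genes (*Car1*, *Car5a*, *Car7*, *Car9*, *Car10* and *Car15*) were measured beside them. The genes were chosen by name because *Car6* was nearly silent in one line and abundant in others, so the levels of *Car6* are given as a description, with no test.

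RNA was sequenced from TM6, rho0, PKO-1 and PKO-6 MEFs, with 3 replicates of each and 12 libraries in all. TM6 MEFs are immortalized with SV40 large T antigen and carry loxP sites around exon 2 of both alleles of *Pnpt1*, which encodes the mitochondrial RNA processing enzyme PNPase, and the other lines descend from them and share this background. The rho0 line was grown for 3 weeks in ditercalinium, a DNA-binding drug that depletes mtDNA, at 750 ng/mL and was then grown up from one colony. The knockout clones PKO-1 and PKO-6 each came from 1 cell after an adenovirus delivered Cre recombinase to delete exon 2. The study reported that these clones, like rho0, had lost their mtDNA and did not respire. All 4 lines grew with uridine at 50 µg/mL. Each derived line is therefore 1 clone, and the spread between its replicates is that between cultures of a clone, so a difference between lines cannot be told apart from a difference between clones.

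Totals per library were 47164860 to 67991378 estimated counts, and all levels below are normalized counts (counts divided by the library's scaled size) unless TPM is named, which also divides by transcript length and is the only scale on which genes are compared with each other. *Pnpt1* was at 2832, 3243 and 3320 normalized counts in the TM6 libraries, 5051, 5251 and 5510 in rho0, 1254, 1191 and 1276 in PKO-1 and 1897, 1720 and 2214 in PKO-6. These are counts over the whole gene, of which 1 exon is deleted, so they do not check the deletion itself. Of 11 fibroblast markers, 8 to 10 reached 10 normalized counts in each line, with *Col1a1*, *Fn1* and *Vim* among the high ones, whereas *Thy1* had a mean of 2.81 in TM6 and less in the other lines, and *Lum* was at 0 in rho0. The summed fibroblast markers were 538190 to 586160 in TM6, 451860 to 504830 in rho0, 608670 to 658560 in PKO-1 and 355750 to 396690 in PKO-6.

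*Car6* encodes the secreted carbonic anhydrase of saliva and milk. Its gene lies on chromosome 4 of mm10 (GRCm38), on the minus strand from 150187016 to 150201135, and the authors' annotation gives it 1 transcript of 8 exons and 1369 bases. The 3 TM6 libraries held 1.73, 3.82 and 1.99 normalized counts of *Car6*, which were 2, 4 and 2 counts as deposited. The rho0 libraries held 2094, 1936 and 2146. No library of one line overlapped another line in *Car6*, which is a description only, since the genes were chosen by these levels.

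The PNPase knockout clones differed from each other in *Car6*. The 3 PKO-1 libraries held 140, 122 and 109 normalized counts, and the 3 PKO-6 libraries held 3066, 2407 and 2923. PKO-1 thus lay between TM6 and the other lines, while PKO-6 lay above rho0 in every library. Means were 2059 ± 110 (SD, n = 3) in rho0, 123.9 ± 15.98 (SD, n = 3) in PKO-1 and 2799 ± 347 (SD, n = 3) in PKO-6.

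**Figure D1:**
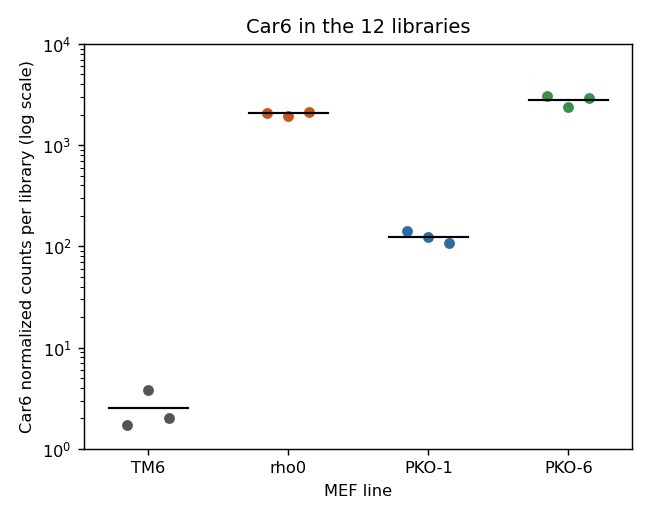
*Car6* in normalized counts per library (vertical axis, log scale) for the 4 MEF lines (horizontal axis), with 1 point per library and a black line at the mean of 3. TM6 libraries sit between 1.73 and 3.82, PKO-1 libraries between 109 and 140, and rho0 and PKO-6 libraries between 1936 and 3066.

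Ratios of summed *Car6* counts, scaled by library size, show the distances between lines, with exact 95% intervals that cover counting error only. Against TM6, *Car6* was 826 times as high in rho0 (419 to 1913), 49.3 times as high in PKO-1 (24.8 to 115) and 1131 times as high in PKO-6 (574 to 2621). The width of these intervals comes from the 8 counts that TM6 held in all. Between the derived lines, where counts were ample, *Car6* in PKO-6 was 22.9 times that in PKO-1 (20.6 to 25.6) and 1.37 times that in rho0 (1.33 to 1.42). In rho0 it was 16.7 times that in PKO-1 (14.995 to 18.7). These narrow intervals leave out the spread between cultures, which was 2407 to 3066 normalized counts in PKO-6 and 1936 to 2146 in rho0. The ratios are a description only, since the genes were chosen by these levels.

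Set among all 14026 tested genes by mean TPM, *Car6* moved from the bottom of the tested genes towards their top. It had rank 13587 in TM6 at 0.0633 TPM, above 3.02% of the tested genes, and rank 10016 in PKO-1 at 3.02 TPM, above 28.6% of them. In rho0 it had rank 2382 at 51.8 TPM and in PKO-6 rank 1681 at 69.1 TPM, above 83.0% and 88.0% of the tested genes. In bulk libraries such as these, more cells that make a transcript and more transcript per cell cannot be told apart.

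Markers of the salivary acinar cell, a cell type in which *Car6* is known to be made, differed among themselves across the lines. Their summed level over 6 genes was 720 to 737 normalized counts in TM6, 252 to 312 in rho0, 1098 to 1164 in PKO-1 and 289 to 337 in PKO-6, so it was lowest in the lines in which *Car6* was highest. Most of this sum was *Aqp5*, a water channel. Means of *Amy1*, the salivary amylase, which is similar enough to other amylase genes that reads may be shared, were 5.27 in TM6, 23.2 in rho0, 17.7 in PKO-1 and 28.8 in PKO-6, in the same order as those of *Car6*. The acinar regulator *Bhlha15* had means of 8.27, 12.9, 8.51 and 15.4 in TM6, rho0, PKO-1 and PKO-6, also in that order. Of the other secretory genes, *Smgc* was at 0 in all 4 lines, *Prol1* was at 0 in the derived lines and at 0.33 in TM6, and *Muc19* was between 0.33 and 2.16. Epithelial markers summed to 260 to 276 in TM6, 409 to 471 in rho0, 817 to 842 in PKO-1 and 111 to 140 in PKO-6, and one of them, *Epcam*, was highest in PKO-6 (88.0, against 4.35 in TM6). Endothelial markers summed to 41.1 to 69.8 in TM6, 12.3 to 19.9 in rho0, 23.8 to 41.7 in PKO-1 and 142 to 164 in PKO-6, mostly *Kdr* (55.2 in TM6 and 142 in PKO-6), while *Tie1* was at 0 in the 3 derived lines. Immune markers summed to 72.6 to 106 in TM6, 94.9 to 154 in rho0, 85.2 to 104 in PKO-1 and 169 to 200 in PKO-6, mostly *Cd68* (91.6 in TM6 and 186 in PKO-6), while *Cd3e* and *Adgre1* were at 0 in all 4 lines. PKO-6, the line with the most *Car6*, thus had the highest endothelial and immune sums, mostly from *Kdr* and *Cd68*, and the lowest epithelial sum. Means of *Pecam1*, *Cdh5* and *Ptprc* in PKO-6 were 2.58, 6.66 and 0.82. The part of other cell types in the *Car6* levels was not tested.

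Bases upstream of the start are shown for *Car6* and for *Car11*, the tested family gene whose pattern was nearest to it, around a motif that their 250-base windows before the start held. Each stretch has 30 bases read 5′ to 3′ on the gene's strand, from the RefSeq promoter table of GRCm38.p6, with the motif in capitals. The *Car6* stretch (chr4:150201267-150201296, minus strand) holds the E-box CACGTG, whose first base is 149 bases before the start, and that of *Car11* (chr7:45699773-45699802, plus strand) holds a match to the amino acid response element, searched as TGATGNAAN, 184 bases before the start.
Car6: gaggaggtgaggCACGTGcacaggcaccaa
Car11: ggaccagaggTGATGGAAGagggggtgggg

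Such letters are not rare. Of 32851 windows of this length, 6.02% held the E-box on either strand and 3.44% the amino acid response element. The hypoxia response core ACGTG, which 16.6% of windows held, occurred in the *Car6* window only inside the E-box, once on each strand. The *Car6* window also held CCAAT (33.8% of windows), and neither window held TATAAA (12.4%) or TGACGTCA (1.55%). *Car6* had 3 CpG dinucleotides there and *Car11* had 4, against a median of 6. A GENCODE transcript of *Car6* starts farther upstream, at 150201332, and 1 of *Car11* starts within its window, at 45699843, so the windows are placed by the start in the authors' annotation and the *Car6* stretch lies in the first exon of that longer transcript. A match describes the letters and is not evidence of binding. Of the 16 family genes, *Car1*, *Car2*, *Car3*, *Car8* and *Car13* had no entry in the table.

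None of the 3 nearest tested genes on each side of *Car6* was called higher in all 3 derived lines. *Eno1*, the glycolytic enzyme gene that begins 36062 bases beyond *Car6*, was at 99158 ± 1630 (SD, n = 3) in TM6 and 138530 ± 16809 (SD, n = 3) in rho0. This log2 fold change of 0.48 (SE 0.0894, adjusted p = 2.65e-04, edgeR) missed a call by its size only. The changes of *Eno1* in PKO-1 (0.061, adjusted p = 0.570) and PKO-6 (0.12, adjusted p = 0.255) were not called either. A gene was called where edgeR's quasi-likelihood test gave an adjusted p below 0.01 and the log2 fold change exceeded 0.5 in size. *H6pd* and *Rere*, the next tested gene out on each side, were called in none of the 3 comparisons with TM6. *Gpr157*, the nearest tested gene at lower coordinates, fell in PKO-1 by 0.62 on the log2 scale and *Spsb1* fell in rho0 and PKO-1 by 0.79 and 1.02. *Errfi1*, 653956 bases away, rose in PKO-1 by 1.89 and in PKO-6 by 1.34, and its change of 0.16 in rho0, where *Car6* was high, was not called. Over the 894 tested genes of chromosome 4, the median change was 0.16 for rho0, -0.039 for PKO-1 and 0.12 for PKO-6.

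**Figure D2:**
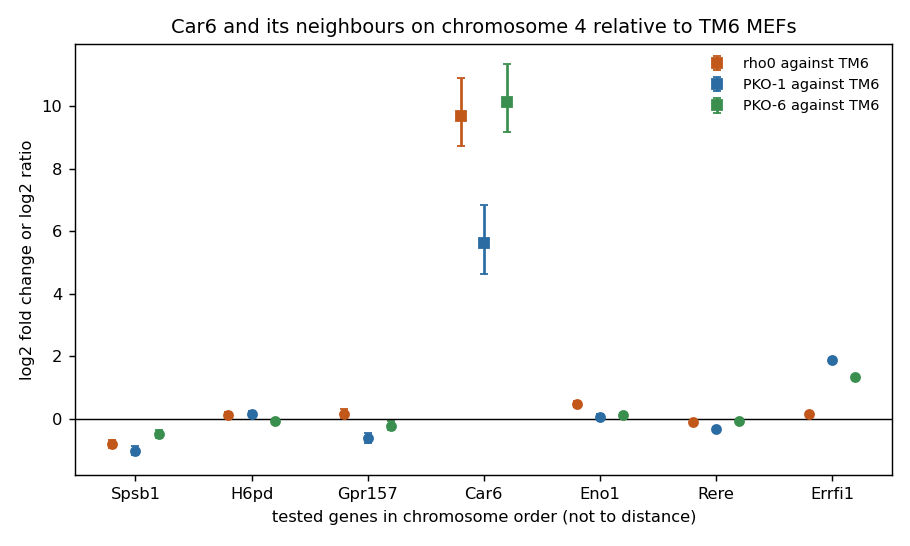
Change relative to TM6 MEFs (vertical axis, log2) of *Car6* and the 3 nearest tested genes on each side, in chromosome order (horizontal axis), for rho0, PKO-1 and PKO-6. Circles are log2 fold changes with 1 SE, squares are log2 ratios of *Car6* counts with 95% counting intervals, and no neighbour is called higher in all 3 lines.

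Genes with a pattern across libraries like that of *Car6* were found elsewhere in the genome. Over the 12 libraries, the 5 highest Pearson correlations of log2 CPM with *Car6* among 11204 genes were those of *Extl1* (0.997), *Ahi1* (0.996), *Cth* (0.995), *Snhg1* (0.995) and *Dhrs7* (0.995). They are a description only, since the libraries form 4 lines and the points share the lines' levels. *Extl1*, an exostosin-like glycosyltransferase gene also on chromosome 4 but at 134356373 to 134372547, had the most similar course, with 13.2 ± 1.56, 1151 ± 80.1, 148 ± 23.2 and 1449 ± 150 normalized counts (SD, n = 3) in TM6, rho0, PKO-1 and PKO-6. *Cth*, which encodes the enzyme that makes cysteine from cystathionine, stood at 664 ± 29.6, 11772 ± 865, 3133 ± 328 and 10373 ± 336 (SD, n = 3) in the same order. Its order of rho0 and PKO-6 was the opposite of that of *Car6*. By Spearman correlation only *Ahi1* stayed among the first 5, and by correlation over the 4 line means only *Extl1* and *Snhg1* did.

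With *Car6* the summed family more than doubled in PKO-6 and rho0, and without it the sum stayed near that of TM6 in these lines and was higher in PKO-1. The summed level of all 16 genes was 37.9 ± 1.33 TPM (SD, n = 3) in TM6, 86.8 ± 5.54 in rho0, 54.4 ± 2.75 in PKO-1 and 107.5 ± 14.4 in PKO-6. That sum without *Car6* was 37.8 ± 1.32, 34.9 ± 1.92, 51.4 ± 2.62 and 38.4 ± 3.24 TPM. *Car6* held 0.167% of the family's transcripts in TM6, 59.7% in rho0, 5.56% in PKO-1 and 64.0% in PKO-6. Cytosolic isoforms, almost all *Car13*, were 65.5% in TM6 and 68.2% in PKO-1 but 23.9% in rho0 and 19.8% in PKO-6. The mitochondrial isoforms, almost all *Car5b*, went from 22.2% in TM6 to 4.03% in rho0, 10.0% in PKO-1 and 4.14% in PKO-6. Isoforms of the cell surface held 8.79% to 10.3% in every line, though through different genes. All these shares divide by a total that rose with *Car6*, so they do not give the level of a class. Mean TPM of the cell surface class was 3.88 (TM6), 7.97 (rho0), 5.19 (PKO-1) and 9.42 (PKO-6). For the cytosolic class it was 24.9 (TM6), 20.7 (rho0), 37.1 (PKO-1) and 21.15 (PKO-6). The mitochondrial class had 8.42 (TM6), 3.5 (rho0), 5.45 (PKO-1) and 4.39 (PKO-6).

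**Figure D3:**
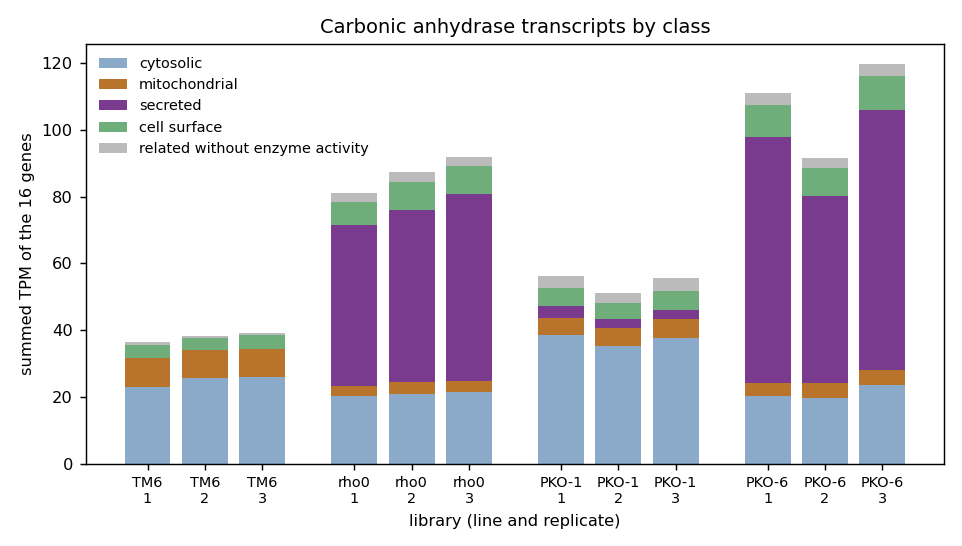
Summed TPM of the 16 carbonic anhydrase genes (vertical axis) in each library (horizontal axis, line and replicate), stacked by class: cytosolic, mitochondrial, secreted (*Car6*), cell surface, and related genes without enzyme activity. The secreted part holds 59.7% of the bar on average in rho0 and 64.0% in PKO-6, and 0.167% in TM6.

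Of the 10 listed genes, 7 had enough counts to be tested, and 6 of these were other than *Car6*. In rho0 relative to TM6, 3 of the 6 were called (2 higher and 1 lower), where 42.1% of all tested genes were called, 20.7% higher and 21.4% lower. For PKO-1 relative to TM6 it was 4 of the 6 (2 higher and 2 lower) against 34.3% of all genes (16.4% higher, 17.9% lower), and in PKO-6 relative to TM6 4 of the 6 (3 higher and 1 lower) against 41.3% (21.9% higher, 19.4% lower). The 3 comparisons share the TM6 libraries. A count over 6 genes describes these genes only, and its distance from the background was not tested. Their median log2 fold change was -0.074 in rho0, 0.34 in PKO-1 and 1.18 in PKO-6, against 0.018, 0.00086 and 0.014 over all tested genes.

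The derived lines also differed from each other. Between PKO-1 and PKO-6, 4 of the 6 passed, 2 in each direction, against 29.1% of all genes (11.5% higher and 17.6% lower in PKO-1). Between PKO-1 and rho0, 5 of the 6 passed, 3 of them higher in PKO-1 and 2 in rho0, against 32.7% of all genes (15.1% higher and 17.6% lower in PKO-1). Between PKO-6 and rho0, 2 of the 6 passed, both higher in PKO-6, against 21.5% of all genes (13.3% higher and 8.16% lower in PKO-6). When both clones were pooled against TM6, which counts the distance between the clones as spread, 2 of the 6 were called, *Car8* higher and *Car5b* lower, against 25.7% of all genes (13.5% higher, 12.2% lower).

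**Figure D4:**
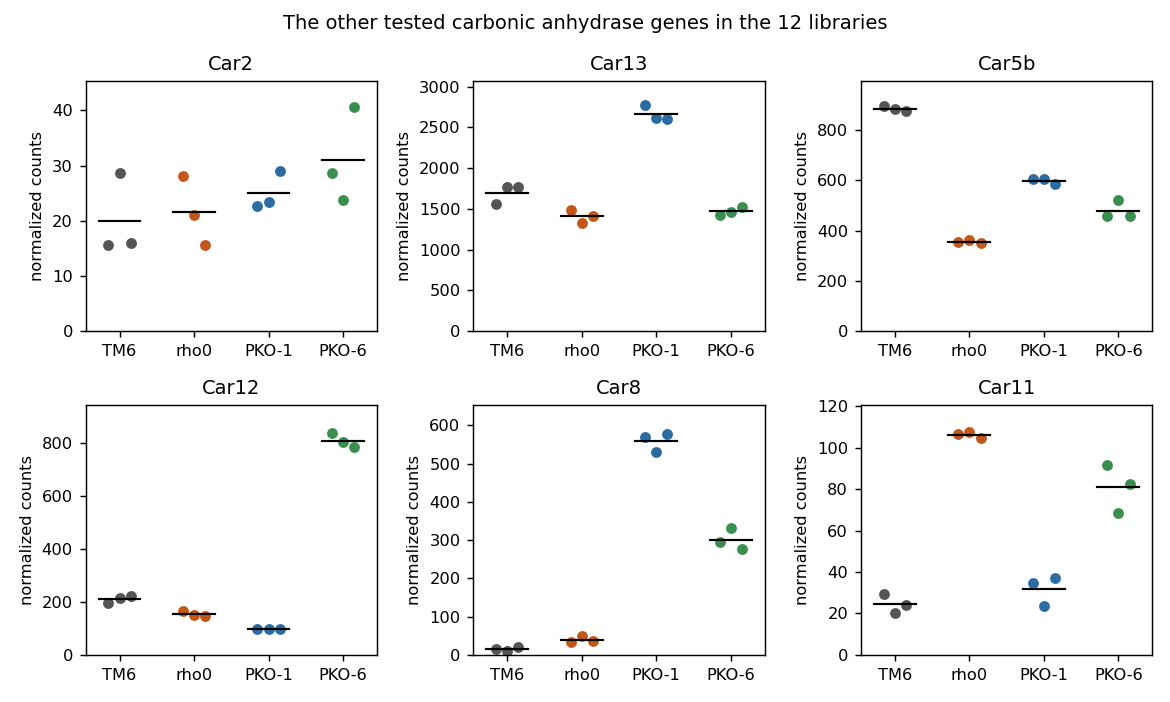
Normalized counts (vertical axes, from 0) of the 6 tested family genes other than *Car6* in each library of the 4 MEF lines (horizontal axes), with 1 point per library and a black line at the mean of 3. *Car8* is high in both PKO clones, *Car12* in PKO-6, *Car11* in rho0 and PKO-6, *Car13* in PKO-1 and *Car5b* in TM6.

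*Car13*, a cytosolic isoform, was the most abundant carbonic anhydrase of TM6 MEFs at 24.3 TPM. Its libraries held 1563, 1766 and 1772 normalized counts in TM6, 1485, 1332 and 1416 in rho0, 2770, 2620 and 2598 in PKO-1 and 1431, 1459 and 1525 in PKO-6. PKO-1 was above every other library, and the other 3 lines lay close together. It rose in PKO-1 by a log2 fold change of 0.65 (SE 0.0607, adjusted p = 5.44e-07, edgeR). The changes in rho0 (-0.27, SE 0.0615, adjusted p = 0.00144) and PKO-6 (-0.21, SE 0.0612, adjusted p = 0.00784) were below the size needed for a call. In order of level PKO-1 came first, then TM6, PKO-6 and rho0, and the last of these steps (0.06, SE 0.0618, adjusted p = 0.427) was within the spread.

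*Car2*, the widespread high-activity cytosolic enzyme, was scarce in these fibroblasts. Its libraries held 15.6 to 28.7 normalized counts in TM6, 15.6 to 28.1 in rho0, 22.6 to 28.96 in PKO-1 and 23.8 to 40.7 in PKO-6. The lines overlapped and none of the 6 comparisons of lines called it. The largest change, 0.63 (SE 0.310, adjusted p = 0.0845) in PKO-6 relative to TM6, was not detectable as a difference at 16 to 42 counts per library. *Car3*, the cytosolic isoform of muscle and fat, had 0 counts in all 12 libraries, which allows at most 3 counts, or 0.0441 to 0.0636 CPM. *Car13*, *Car3* and *Car2* lie together on chromosome 3 between 14641727 and 14900770, with *Car1*, the red cell isoform, among them, and *Car1* also had 0 counts in every library. In this cluster *Car13* was thus abundant, *Car2* scarce and the genes between them at 0.

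*Car5b* encodes a mitochondrial carbonic anhydrase, and it was lower in all 3 derived lines. Its libraries held 895, 885 and 876 normalized counts in TM6, 355, 365 and 351 in rho0, 607, 607 and 585 in PKO-1 and 460, 521 and 459 in PKO-6. No line overlapped another. Relative to TM6 it fell by 1.31 on the log2 scale in rho0 (SE 0.0719, adjusted p = 1.78e-09), by 0.56 in PKO-1 (SE 0.0698, adjusted p = 8.56e-06) and by 0.88 in PKO-6 (SE 0.0702, adjusted p = 6.79e-08). Against rho0 it was higher by 0.75 in PKO-1 (adjusted p = 8.72e-07), while the steps from rho0 to PKO-6 (0.43) and from PKO-6 to PKO-1 (0.32) were too small to be called.

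*Car5b* lies on the X chromosome (163976822 to 164028010), and the 459 tested genes of that chromosome were lower as well. Their median log2 fold change relative to TM6 was -0.75 for rho0, -0.74 for PKO-1 and -0.87 for PKO-6. Relative to this median *Car5b* was lower by a log2 difference of -0.56 in rho0, at -0.015 in PKO-6 and at 0.18 in PKO-1. The fall in PKO-6 was thus within 0.015 of the chromosome's median and that in PKO-1 was smaller than it, and the part of the chromosome in these falls was not tested further. *Car5a*, the other mitochondrial isoform and a liver enzyme, held 1 to 11 counts per library, was not tested and overlaps another gene, *BC048644*, on the opposite strand.

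On the cell surface, *Car12* went in opposite directions in the PKO clones. *Car12* encodes a transmembrane enzyme with its active site outside the cell. The libraries held 196, 217 and 221 normalized counts in TM6, 165, 150 and 147 in rho0, 98.8, 98.0 and 98.3 in PKO-1 and 839, 806 and 787 in PKO-6. No line overlapped another, and PKO-6 stood far above the rest. Relative to TM6 it rose by 1.94 in PKO-6 (SE 0.0835, adjusted p = 1.22e-10) and fell by 1.10 in PKO-1 (SE 0.0927, adjusted p = 1.82e-07), where the median of its chromosome 9 was -0.39. In rho0 its change of -0.46 (SE 0.0884, adjusted p = 3.85e-04) missed the size for a call, which it met without TM6 replicate 1 (-0.53) or without rho0 replicate 1 (-0.52). Pooled, the 2 clones gave 1.11 (adjusted p = 0.253), a mean of a fall and a rise.

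The transcripts of *Car12* differ by exon 9 of the longer form, 30 coding bases at chr9:66762403-66762432. The exon is shown because reads were assigned to the longer form in only 2 lines; it is in capitals below, between 15 bases of each neighbouring exon, from a GENCODE transcript of GRCm38.
Car12: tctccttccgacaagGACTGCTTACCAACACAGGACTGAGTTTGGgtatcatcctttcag

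The form with this exon was estimated at 28.98, 62.0 and 51.6 counts in the PKO-6 libraries, or 2.83%, 7.97% and 6.36% of *Car12*. It was estimated at 0 in all rho0 and PKO-1 libraries and in 2 TM6 libraries, and at 42.4 counts, or 19.1%, in TM6 replicate 3. The share thus varied among the TM6 replicates by more than it did between lines. The shorter form, of 10 exons, was therefore the main one in every library.

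The other isoforms of the cell surface were *Car9*, *Car4*, *Car14* and *Car15*. *Car9*, a transmembrane enzyme known as a target of hypoxia inducible factor, held 98.6, 81.2 and 92.7 normalized counts in TM6, 333, 329 and 358 in rho0, 236, 219 and 234 in PKO-1 and 154, 94.3 and 137 in PKO-6. It rose in rho0 by 1.90 (SE 0.152, adjusted p = 7.74e-08) and in PKO-1 by 1.34 (SE 0.153, adjusted p = 3.95e-06), and in PKO-6 its change of 0.50 (adjusted p = 0.0107) was called only without PKO-6 replicate 2 (0.64, adjusted p = 4.16e-04). Its order, rho0 first and PKO-1 next, was not that of *Car6* or *Car12*. *Car14* held 0 to 5.2 counts as deposited, was not tested and overlaps the abundant *Aph1a* on the opposite strand. *Car4* had 0 counts in all 12 libraries, with the same floor as *Car3*. *Car15* held 10.5 to 36.6 normalized counts and was called in no comparison.

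Of the relatives without enzyme activity, *Car8* and *Car11* were low in TM6 and rose in some of the derived lines. *Car8*, which binds the inositol trisphosphate receptor, held 14.7, 10.5 and 20.9 normalized counts in TM6, 33.9, 48.8 and 36.8 in rho0, 570, 530 and 577 in PKO-1 and 295, 333 and 277 in PKO-6. All 6 PKO libraries were above all 6 others. Relative to TM6 it rose by 5.18 in PKO-1 (SE 0.184, adjusted p = 3.03e-11) and by 4.29 in PKO-6 (SE 0.186, adjusted p = 1.32e-10), the largest changes of a tested family gene other than *Car6*. Relative to rho0 the clones were higher by 3.81 and 2.92, and PKO-1 was higher than PKO-6 by 0.89 (SE 0.132, adjusted p = 5.20e-05). In rho0 it rose by 1.37 (SE 0.227, adjusted p = 1.04e-04), a call lost when the clones were pooled in the fit (adjusted p = 0.0103).

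*Car8* and *Car6* are both on chromosome 4, at opposite ends, and their orders across the lines differed. *Car8* was highest in PKO-1 and in rho0 much nearer to its TM6 level, whereas *Car6* was lowest of the derived lines in PKO-1. On the TPM scale *Car8* reached 2.92 in PKO-1, about the 3.02 of *Car6* there, and 1.59 in PKO-6, where *Car6* had 69.1.

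*Car11* had the pattern nearest to *Car6* among the tested family genes, with a Pearson correlation of 0.90 over the 12 libraries. Its libraries held 29.4, 20.1 and 23.9 normalized counts in TM6, 107, 107 and 105 in rho0, 34.5, 23.4 and 37.2 in PKO-1 and 91.7, 68.4 and 82.4 in PKO-6. The rho0 and PKO-6 libraries were above all TM6 and PKO-1 libraries, which overlapped. It rose by 2.11 in rho0 (SE 0.204, adjusted p = 5.57e-07) and by 1.72 in PKO-6 (SE 0.205, adjusted p = 4.42e-06), and its change of 0.37 in PKO-1 (SE 0.228, adjusted p = 0.175) was not called. PKO-1 was lower than PKO-6 by a log2 difference of -1.35 (SE 0.203, adjusted p = 5.72e-05) and lower than rho0 by -1.74 (SE 0.201, adjusted p = 4.98e-06). The step between rho0 and PKO-6 (-0.39, SE 0.180, adjusted p = 0.0815) was not called. At 0.590 to 2.53 TPM, *Car11* stayed far below *Car6*. The other correlations with *Car6* were -0.93 for *Car5b*, 0.68 for *Car7*, 0.56 for *Car9*, 0.45 for *Car8* and 0.41 for *Car2*. They were 0.38 for *Car12* and for *Car15* and -0.39 for *Car13*. By Spearman correlation that of *Car11* was 0.69. All are descriptions only, since the 12 libraries form 4 lines.

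Of the remaining family genes, *Car10*, another relative without activity, had 0 counts in 11 libraries and 0.57 in the other. *Car7*, a cytosolic isoform best known from neurons, held 7.64 to 8.65 normalized counts in TM6 and 22.3 to 26.6 in rho0, a rise of 1.53 (SE 0.391, adjusted p = 0.00304). At 4 to 26 counts per library over the 4 lines, *Car7* was near the filter on low counts. The call was lost without any one of 4 of the 6 libraries compared, and over all alternatives the adjusted p reached 0.0140.

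**Figure D5:**
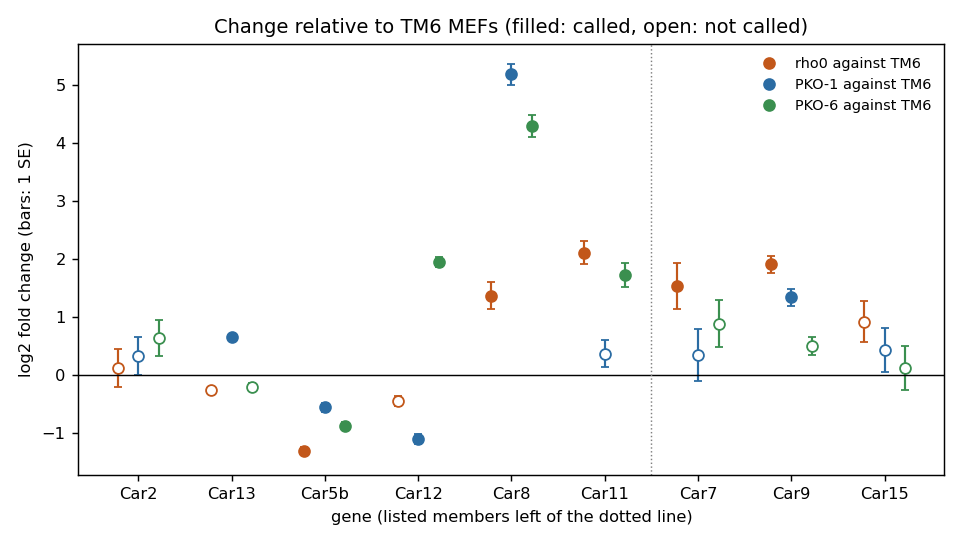
Log2 fold change relative to TM6 MEFs (vertical axis) of the 6 tested listed genes and 3 further family genes (horizontal axis) in rho0, PKO-1 and PKO-6, with bars of 1 SE; filled points were called and open points were not. *Car8* in the PKO clones reaches 5.18 and 4.29, and *Car12* lies at -1.10 in PKO-1 and 1.94 in PKO-6.

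A list of 47 genes, of which 35 were tested, was counted beside the family. It held transporters of bicarbonate, protons and lactate, accessory proteins, enzymes that use bicarbonate, and 2 receptors with a carbonic anhydrase domain. In rho0 relative to TM6, 22 of the 35 passed (12 higher and 10 lower), where 42.1% of all tested genes did (20.7% higher and 21.4% lower). PKO-1 had 17 (8 higher and 9 lower), where 34.3% of all tested genes passed (16.4% higher and 17.9% lower). PKO-6 had 23 (12 higher and 11 lower), where 41.3% passed (21.9% higher and 19.4% lower). Median log2 fold changes of the list were 0.11, 0.017 and 0.20 in rho0, PKO-1 and PKO-6, beside 0.018, 0.00086 and 0.014 over all tested genes. Of 14 tested bicarbonate transporters, 7 were higher and 3 lower in rho0, 5 and 2 in PKO-1 and 7 and 3 in PKO-6. Of 12 tested proton and lactate transporters, 3 were higher and 5 lower in rho0, 1 and 5 in PKO-1 and 3 and 4 in PKO-6. Some transporters in these counts passed the filter on low counts only through lines where they were high, so the filter bears on their calls. Examples are *Slc4a4*, through TM6, *Slc4a10*, through derived lines, and *Slc9a2*, through PKO-6. Of 8 tested enzymes that consume bicarbonate, 1 was higher in each line, and lower calls numbered 2 for rho0, 2 for PKO-1 and 4 for PKO-6. The receptor phosphatase *Ptprg*, whose extracellular part resembles a carbonic anhydrase, rose by 0.63, 0.82 and 0.77 in rho0, PKO-1 and PKO-6.

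Among the transporters, *Slc4a11*, a member of the bicarbonate transporter family, was higher in all 3 derived lines and highest in PKO-6. It held 146 ± 15.7 normalized counts (SD, n = 3) in TM6, 600 ± 48.7 in rho0, 517 ± 26.9 in PKO-1 and 1405 ± 35.9 in PKO-6, log2 fold changes of 2.04, 1.82 and 3.26 (SE 0.0939 to 0.0944). *Slc4a8*, a sodium-driven chloride bicarbonate exchanger, was at 65.8 ± 0.104 in TM6 and rose by 2.44 in rho0, 3.17 in PKO-1 and 1.28 in PKO-6. An anion exchanger gene, *Slc4a3*, rose by 1.74, 0.68 and 1.21. *Slc4a7*, a sodium bicarbonate cotransporter at 11118 ± 650 in TM6, fell by 0.65 in rho0 and 1.04 in PKO-6 and was at 14200 ± 386 in PKO-1, a change of 0.35 that was not called. *Slc26a6*, an anion exchanger, was called in PKO-1 only, where it fell by 1.15 and the median of its chromosome 9 was -0.39. Between the clones it was lower in PKO-1 by a log2 difference of -0.89 (SE 0.121, adjusted p = 2.43e-05).

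The lactate exporter *Slc16a3* (MCT4) was likewise lower in rho0 and PKO-6, at 1139 ± 45.4 normalized counts (SD, n = 3) in TM6, 535 ± 62.2 in rho0, 1594 ± 46.7 in PKO-1 and 722 ± 63.7 in PKO-6. It fell by 1.09 in rho0 and 0.66 in PKO-6, and its change in PKO-1 was 0.48. *Emb*, an accessory protein of such transporters, rose by 1.02 in rho0 and 1.01 in PKO-1 and had a change of 0.099 in PKO-6.

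Mitochondrial carboxylases fix bicarbonate, which mitochondrial carbonic anhydrases are known to supply, and 3 of their genes, *Pcx*, *Mccc2* and *Pccb*, were called lower in several lines. *Pcx*, pyruvate carboxylase, was at 3651 ± 170 normalized counts (SD, n = 3) in TM6, 1966 ± 287 in rho0, 2896 ± 53.4 in PKO-1 and 1824 ± 209 in PKO-6, and fell by 0.89 in rho0 and 1.00 in PKO-6, with a change of -0.33 in PKO-1 that was not called. *Mccc2*, a subunit of methylcrotonyl-CoA carboxylase, fell by 0.74, 0.56 and 1.63 in rho0, PKO-1 and PKO-6, and the median of its chromosome 13 was -0.27 in PKO-1. *Mccc1*, the other subunit of that enzyme, went the other way and rose by 0.70 in rho0 (SE 0.055, adjusted p = 6.67e-08) and by 0.96 in PKO-6 (SE 0.055, adjusted p = 2.11e-09), with a change of 0.49 in PKO-1 that was below the fold required for a call. *Pccb*, a subunit of propionyl-CoA carboxylase, fell by 0.86 in PKO-1, where the median of its chromosome 9 was -0.39. It fell by 1.00 in PKO-6, with a change of -0.16 in rho0, while its partner *Pcca* was called in none of the 3 lines.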

How the data were processed

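RNA of 12 libraries (4 lines, 3 each) was analysed. The authors depleted ribosomal RNA, made stranded libraries in technical duplicate, merged the paired-end reads and ran RSEM 1.2.25 with bowtie2 on RefSeq transcripts of mm10 (GRCm38). Whether strand was used in counting is not given in the sources used here. The deposited gene values are expected counts, not normalized, and 12.5% had decimals, so they were rounded. TPM values are those the authors deposited per transcript, summed here per gene. *Rn45s* held 12.2% to 19.6% of counts.

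Tests used edgeR 4.0.16 (R 4.3.3): filterByExpr with a minimum count of 10 (14026 genes), TMM, a quasi-likelihood fit of 4 lines (3 groups where clones were pooled) and Benjamini-Hochberg adjustment over all tested genes, with the thresholds of the study. The SE is the log2 fold change divided by the square root of F. The script was tested on simulated data. DESeq2 1.42.0, other scalings, filters, thresholds, samples fitted, a replicate block and omission of each library were alternatives. Between TM6 and PKO-6, same-numbered deviations from line means correlated at 0.2093 to 0.2503 and others at -0.2309 to -0.0081. Some differently numbered libraries of other line pairs correlated more, such as PKO-6 replicate 2 with rho0 replicate 1 (0.4896). Whether TM6 and PKO-6 libraries were paired thus cannot be told. No label states it, and the block changed no count by over 1.5 times.

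Named genes were the family, up to 3 rising and 3 falling genes of the other lists per comparison with TM6 (called, mean of at least 100 normalized counts), the 5 genes most like *Car6*, and 3 neighbours on each side. *Ptprg*, *Pcca*, *Mccc1*, *Slc9a2*, *Aqp5* and single markers were named after their values were seen. Of the genes that this rule admits, 1 is not reported here. Members and lists were chosen with earlier results of these data known.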

Additional observations from a re-analysis of the deposited data

Results flagged for a closer look

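Changes relative to TM6 that differed between the PKO clones were found for 4 listed genes and *Car9*, by the test of PKO-1 against PKO-6 in the fit of 4 lines (edgeR's quasi-likelihood test). The change in PKO-1 minus that in PKO-6, on the log2 scale, was 0.89 for *Car8* (adjusted p = 5.20e-05), -1.35 for *Car11* (adjusted p = 5.72e-05), -3.04 for *Car12* (adjusted p = 7.84e-12), 0.86 for *Car13* (adjusted p = 4.24e-08) and 0.83 for *Car9* (adjusted p = 2.62e-04). Of all tested genes, 29.1% were called between the clones (11.5% higher and 17.6% lower in PKO-1). For each gene named here all 3 libraries of one clone lay on the same side of all 3 of the other. That separation was not counted over all genes and adds no support to the calls. For *Car12* the clones moved to opposite sides of TM6, and for *Car8* both moved the same way by different amounts. Each clone is a single isolate, so what a clone carries beyond the deletion cannot be told apart from the deletion.

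*Car2* in 1 of the 6 PKO libraries, PKO-6 replicate 3, stood above the others at 40.7 normalized counts, with a gap to the next library of 0.65 of the whole range, above the critical value of 0.625. About 1 in 20 such groups is marked in this way by chance.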

How the results depend on the processing

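Counts of called genes other than *Car6* stayed within 1.5 times under DESeq2's Wald test, its size factors, library sizes without *Rn45s*, no filter on low counts, an adjusted p below 0.05, the compared libraries fitted alone and leave-one-out fits for each library. They moved when a log2 fold change above 1 was required, to 2 (from 4) in PKO-1 relative to TM6, 2 (from 4) between the clones, 2 (from 5) in PKO-1 relative to rho0 and 1 (from 2) in the pooled clones. The list of 35 bicarbonate and pH genes then gave 14 in rho0, 11 in PKO-1 and 14 in PKO-6, and 14 in rho0 with the clones pooled in the fit, from 22, 17 and 23; with the clones pooled, the distance between them enters the spread. With replicate number as a block the family counts were 3, 4 and 4 in rho0, PKO-1 and PKO-6 relative to TM6, as without it. The block moved no count by over 1.5 times in the other comparisons. For all pairs of lines except TM6 with PKO-6, same-numbered libraries correlated between -0.3851 (rho0 with TM6) and 0.2378 (PKO-1 with TM6).

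Of 63 changes of single genes, 30 were called, and 27 of these kept call and direction under every alternative with a test. Calls were lost under some for *Car8* and *Car7* in rho0 and for *Car9* between PKO-1 and rho0. When the chromosome's median was removed, an alternative added after the data were seen, *Car5b* turned to 0.18 in PKO-1 and 0.064 in the pooled clones, and *Car13* between PKO-6 and rho0 to -0.19. Leaving out 1 library gave, for changes that were not called, -0.14 to 0.46 for *Car2* in rho0 (below 0 without TM6 replicate 1 or 3 or rho0 replicate 1), -0.059 to 0.36 for *Car15* in PKO-6 (lowest without TM6 replicate 2) and -0.019 to 0.58 for *Car15* between the clones (lowest without PKO-1 replicate 3). *Car9* in the pooled clones (adjusted p = 0.0116) was called by DESeq2 and without PKO-6 replicate 2 or 3, and *Car11* there (0.0328) without PKO-1 replicate 2. Genes at a few counts, *Car6* in TM6 among them, are limited by depth.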

Other observations

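A transporter outside the rule for named genes, *Slc4a4*, was singled out after its values were seen. It encodes the electrogenic sodium bicarbonate cotransporter, which is known to supply bicarbonate to cells, and lies on chromosome 5 of GRCm38 from 88887260 to 89239656. It was the reverse of *Car6* in that it was present in TM6 and nearly absent from all 3 derived lines. The TM6 libraries held 150, 169 and 134 normalized counts, the rho0 libraries 0, 1.11 and 1.12, the PKO-1 libraries 1.19, 0 and 0, and the PKO-6 libraries 0.819, 2.07 and 0. Over 3 libraries each, 484 counts in TM6 stood against 2, 1 and 3. With exact 95% counting intervals, TM6 was 214 times rho0 (58.8 to 1769), 415 times PKO-1 (74.0 to 16406) and 162 times PKO-6 (55.1 to 788). The intervals cover counting error only and leave out the spread between cultures. *Slc4a4* was picked by these values and passed the filter on low counts through TM6, so the ratios are a description only. The median change of its chromosome was -0.21 in rho0, 0.090 in PKO-1 and 0.061 in PKO-6 on the log2 scale.

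Its relative *Slc4a10*, also chosen after the values were seen, held 0 to 0.997 normalized counts in TM6, 19.4 to 25.5 in rho0, 2.38 to 11.4 in PKO-1 and 6.79 to 14.5 in PKO-6. All libraries of the derived lines were above all TM6 libraries, at levels of a few counts in several of them. *Slc4a10* passed the filter on low counts only through derived lines. Its separation from TM6 was not counted over all genes and is a description only.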
